A study of Mus musculus with 24 samples.

Results

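The nuclear-encoded subunits of the mitochondrial respiratory chain and of ATP synthase were followed in whole mouse lung after endotoxin (lipopolysaccharide, LPS). They were taken as every probe whose platform symbol starts with Nduf, Sdh followed by a, b, c or d, Uqcr, Cox4, Cox5, Cox6, Cox7, Cox8 or Atp5, provided that it lay above background on at least 3 arrays. In all, 85 probes matched by symbol and all 85 passed that filter, each on at least 20 of 24 arrays and 73 on all 24. They stand for 76 of 9605 named genes, among 13544 probes tested. By role they were 33 probes of complex I subunits, 7 of complex I assembly factors, 3 of complex II subunits, 3 of complex II assembly factors, 6 of complex III, 13 of the common complex IV subunits, 5 of complex IV isoforms known from particular tissues, and 15 of ATP synthase. The mitochondrial DNA encodes further subunits, which the rule did not take in.

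The lungs came from male C57BL/6 mice of 6 to 8 weeks of age. Rag-1 null mice given LPS were sampled at 1, 4 and 10 days beside Rag-1 null control mice, and wild type mice given LPS at 1, 4 and 10 days beside wild type control mice. Without Rag-1, which cuts antigen receptor genes for recombination, mature T and B cells do not form, so all 4 Rag-1 null groups lack them. The series is titled for regulatory T cells in lung injury that resolves. Each of the 8 groups held 3 arrays, 1 on each of 3 slides. The sources used here do not give the LPS dose, its route, the treatment of control mice or how many animals made up a sample. Hence p-values cover only the spread of these samples, and that spread may be technical.

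The respiratory chain sits in the inner mitochondrial membrane. Complex I takes electrons from NADH and complex II takes them from succinate, both pass them through ubiquinone to complex III, and cytochrome c carries them on to complex IV, which reduces oxygen to water. Complexes I, III and IV pump protons, and ATP synthase makes ATP as the protons return. Most subunits come from nuclear genes, and several genes of complex IV have one isoform made in nearly all tissues and another made mainly in heart and skeletal muscle, lung or testis. In inflamed tissue the balance between respiration and glycolysis is known to differ between resting and activated cells, which is background here and was not measured.

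Promoters of 7 genes are shown because results turn on them: 3 genes that were lower at day 1 in wild type lung (Atp5h, Ndufs8 and Uqcrh), 2 complex IV subunits made in nearly all tissues (Cox7a2 and Cox8a), and their muscle-type partners (Cox7a1 and Cox8b). Each is the 250 bases before the start of transcription, 5′ to 3′ on the gene's strand, from RefSeq on build GRCm38.p6. The windows are chr11:115419920-115420169 on the minus strand for Atp5h, chr19:3912775-3913024 minus for Ndufs8, chr4:116075071-116075320 minus for Uqcrh, chr9:79759854-79760103 minus for Cox7a2, chr7:30183921-30184170 plus for Cox7a1, chr19:7217617-7217866 minus for Cox8a and chr7:140900447-140900696 minus for Cox8b. Capitals mark a match to a motif of NRF1 or of the ETS factors (CCGGAAG), searched on both strands.
Atp5h: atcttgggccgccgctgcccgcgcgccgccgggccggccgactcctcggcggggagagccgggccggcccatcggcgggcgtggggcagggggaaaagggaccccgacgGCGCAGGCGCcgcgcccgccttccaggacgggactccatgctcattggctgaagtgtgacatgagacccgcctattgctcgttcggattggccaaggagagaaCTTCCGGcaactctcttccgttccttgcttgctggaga
Ndufs8: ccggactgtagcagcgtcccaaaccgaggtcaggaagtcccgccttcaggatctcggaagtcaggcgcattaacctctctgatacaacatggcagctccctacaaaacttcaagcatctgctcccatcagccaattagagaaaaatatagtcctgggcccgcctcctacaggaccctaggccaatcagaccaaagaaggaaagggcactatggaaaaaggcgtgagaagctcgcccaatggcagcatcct
Uqcrh: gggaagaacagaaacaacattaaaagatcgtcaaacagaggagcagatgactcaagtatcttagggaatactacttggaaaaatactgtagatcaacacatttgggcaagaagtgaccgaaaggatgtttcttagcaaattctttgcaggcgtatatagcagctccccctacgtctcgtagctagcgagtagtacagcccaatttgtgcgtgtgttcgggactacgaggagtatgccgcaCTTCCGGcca
Cox7a2: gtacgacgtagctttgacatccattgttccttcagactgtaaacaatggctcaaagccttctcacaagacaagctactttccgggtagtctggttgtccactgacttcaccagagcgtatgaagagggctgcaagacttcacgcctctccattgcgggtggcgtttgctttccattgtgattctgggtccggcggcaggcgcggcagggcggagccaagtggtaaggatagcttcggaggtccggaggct
Cox7a1: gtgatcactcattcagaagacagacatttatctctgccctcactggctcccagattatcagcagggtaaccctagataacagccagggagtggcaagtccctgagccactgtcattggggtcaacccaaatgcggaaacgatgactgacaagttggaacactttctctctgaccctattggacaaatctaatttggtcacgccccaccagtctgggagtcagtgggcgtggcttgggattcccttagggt
Cox8a: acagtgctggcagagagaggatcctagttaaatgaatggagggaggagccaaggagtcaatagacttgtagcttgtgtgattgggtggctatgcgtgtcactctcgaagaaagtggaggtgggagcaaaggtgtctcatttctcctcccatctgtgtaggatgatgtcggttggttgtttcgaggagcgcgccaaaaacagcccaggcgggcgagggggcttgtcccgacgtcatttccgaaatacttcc
Cox8b: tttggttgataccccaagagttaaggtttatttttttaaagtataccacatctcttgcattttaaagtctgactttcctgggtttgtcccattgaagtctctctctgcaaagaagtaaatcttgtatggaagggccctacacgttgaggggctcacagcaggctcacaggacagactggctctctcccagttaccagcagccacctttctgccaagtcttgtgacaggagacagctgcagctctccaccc

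NRF1 and the ETS factor GABP are known activators of nuclear genes for the chain. Of 76 genes, 65 had a promoter in the table, with 70 starts in all. The NRF1 motif was found in 11 of these 70 windows, 15.7%, against 3.74% of all 32851 promoters of the same length, and the ETS motif in 13, 18.6%, against 6.91% of all promoters. A YY1 motif (AAGATGG) was found in 1 window, 1.43%, against 4.49% of all, and a MEF2 motif in 1, 1.43%, against 3.2% of all. The median window held 14 CpG dinucleotides, against 6 over all promoters. Among the shown windows, Atp5h held 1 NRF1 and 1 ETS match with 29 CpG, Uqcrh held 1 ETS match with 11 CpG, and Ndufs8, Cox7a2 and Cox8a held no match with 9, 14 and 11 CpG. The windows of Cox7a1 and Cox8b held no match, with 4 and 1 CpG. These are matches of letters in a window, described without a test.

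Values are background-corrected, quantile-normalised log2 intensities, given array by array in the order of replicates 1, 2 and 3. A fold change is the difference of group means on that scale with its standard error (SE), tested in limma over all 13544 probes, and a probe is called where its adjusted p is under 0.05. Probes above background numbered 9517 to 12125 on an array, and the median signal was 31.0 to 47.9. The arrays of wild type lung at day 1 stood apart from their own group: over all probes tested, replicates 1 and 2 correlated at 0.858, 1 and 3 at 0.914 and 2 and 3 at 0.969, while replicate pairs of the other 7 groups lay at 0.966 to 0.992. Over the 85 members, the root mean square deviation from the group mean was 0.627, 0.456 and 0.303 on those 3 arrays and 0.0968 to 0.258 on the other 21. Counts that rest on this group are therefore given also without replicate 1, as are values of named members that this moved by over 1.5 times or took across the threshold. The fit estimates the spread from all 8 groups together. Leaving out this array therefore also changes counts in comparisons that do not use it, though not their fold changes. The column titles of the scanner table named another sample for 22 of 24 arrays, so each array was tied to its sample by identity with the authors' value table; under this assignment Cd3e, Cd3d, Cd79b and Fcmr were each lower in every Rag-1 null array than in all 12 wild type arrays. The Rag1 probe was dim everywhere, at 4.45 to 4.94 in Rag-1 null lung and 4.28 to 4.76 in wild type lung, and checks nothing.

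One day after LPS, most called members were lower in wild type lung than in wild type control lung. Of 85 probes, 39 fell and 4 rose, 43 in all (50.6%), against 39.2% of all probes tested; by direction, 45.9% of members fell, against 21.2% of all probes, and 4.71% rose, against 18.1%. The median member log2 fold change was -0.428, beside -0.00958 over all probes, and on the 3 slides it was -0.463, -0.412 and -0.319. In whole lung, fewer cells of a type and less RNA per cell cannot be told apart. Without replicate 1 of this group 43 members fell and 2 rose, and 36 of the 43 original calls held with their sign. The excess of calls over all probes depended on the scaling. In the authors' value table the members' share of calls lay below that of all its probes, and with cyclic loess it lay little above. Falls still outnumbered rises in the value table, and the values are given in the last section.

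**Figure D1:**
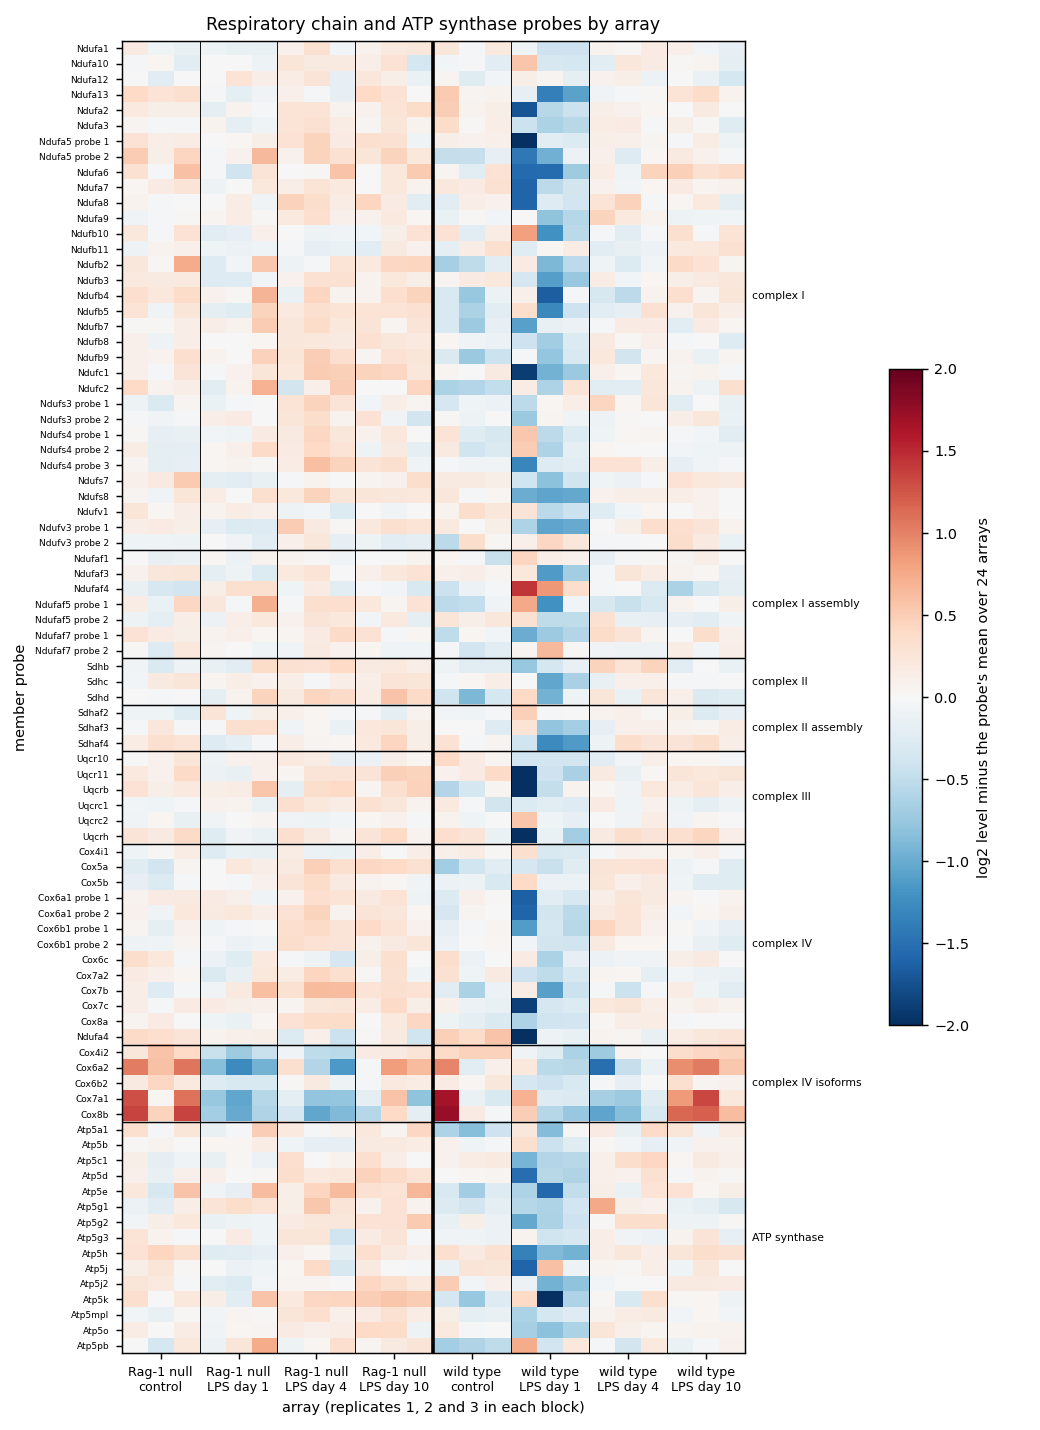
Log2 intensity minus the probe's mean over 24 arrays for each of the 85 probes (rows, grouped by complex) on each of the 24 arrays (columns, Rag-1 null block left of the wild type block, conditions in time order); the colour scale is clipped at 2 log2 units each way. The wild type LPS day 1 columns hold most of the low values, and replicate 1 there differs from replicates 2 and 3.

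Of the 33 subunit probes of complex I, 17 fell at day 1 in wild type lung and 0 rose, with a median of -0.412. Ndufs8, an iron-sulfur subunit of the arm that receives electrons from NADH, read 7.34, 7.28 and 7.30 at LPS day 1, against 8.55, 8.30 and 8.37 in wild type control lung. All 3 LPS arrays lay below all 3 control arrays and close to each other, and Ndufs8 fell by 1.10 ± 0.113 on the log2 scale (SE; limma, adjusted p = 1.09e-07), a 2.14-fold lower level. Ndufc1, an accessory subunit, read 5.74, 6.70 and 6.91 at LPS day 1, against 7.70, 7.65 and 7.82 in control lung. Its groups did not overlap, replicate 1 was the lowest array, and the log2 fold change was -1.27 ± 0.193 (SE; limma, adjusted p = 1.76e-05). Ndufa6, another accessory subunit, read 6.002, 6.01 and 6.85, against 7.61, 7.34 and 7.84 in control lung, again without overlap, with a log2 fold change of -1.31 ± 0.232 (SE; limma, adjusted p = 0.000108). Without replicate 1 these 3 folds were -1.12, -0.918 and -1.16, all called.

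Other complex I subunits that fell included Ndufa2 (-1.13 ± 0.215 (SE)), Ndufa13 (-1.08 ± 0.204 (SE)), Ndufa7 (-1.06 ± 0.197 (SE)) and Ndufb3 (-0.88 ± 0.141 (SE)), all accessory subunits, and the core iron-sulfur subunit Ndufs7 (-0.69 ± 0.127 (SE)). Ndufv1, which binds NADH, fell by 0.45 on the log2 scale (limma, adjusted p = 0.0205). Probes of 1 gene did not always move alike. The Ndufv3 probes gave -1.001, called, and 0.31, not called; the 3 Ndufs4 probes ranged from -0.54, called, to 0.08; and the Ndufa5 probes gave -1.02, called, and -0.47, not called. The cause was not tested. Ndufc2 was not well above background on any wild type control array, so no fold is given for it. Over the other 32 probes the log2 fold changes ran from -1.31 to 0.31. Without replicate 1 of LPS day 1 the values were -0.714 for Ndufa2, -0.67 for Ndufa7, -0.699 for Ndufv1 and -0.336 for the called Ndufa5 probe, all still called, and -0.185 (limma, adjusted p = 0.271) for the Ndufs4 probe, whose call was lost.

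Complex I assembly factors, which help build the complex but are not part of it, went both ways. Of 7 probes 3 rose and 2 fell. Ndufaf4 read 7.46, 6.91 and 6.39 at LPS day 1 in wild type lung, against 5.60, 5.93 and 6.005 in control lung. Every LPS array was above every control array, replicate 1 most, and Ndufaf4 rose by 1.07 ± 0.202 (SE; limma, adjusted p = 0.000192); without replicate 1 the value was 0.804 and still called. Ndufaf1 read 6.99, 6.68 and 6.64, against 6.60, 6.52 and 6.11 in control lung, with all LPS arrays above all control arrays but by a small margin. Its log2 fold change of 0.36 ± 0.133 (SE; limma, adjusted p = 0.0345) lost its call without replicate 1 of LPS day 1 (0.252, adjusted p = 0.128) and without replicate 3 of the controls (0.210, adjusted p = 0.231). Ndufaf3 fell (-0.63 ± 0.202 (SE); -1.01 without replicate 1). The pair of Ndufaf7 probes opposed each other, at -0.59 and 0.45, both called, so no direction is given for that gene; the first was above background on 1 of 3 LPS arrays and the second on 2 of 3 control arrays.

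In complex II, which also belongs to the tricarboxylic acid cycle, 1 of 3 subunit probes fell at day 1 in wild type lung. Sdhc, a membrane anchor, read 8.47, 7.44 and 7.83 at LPS day 1, against 8.43, 8.52 and 8.61 in control lung. Replicate 1 lay within the control range and replicates 2 and 3 below it, and the log2 fold change was -0.61 ± 0.167 (SE; limma, adjusted p = 0.00586). Sdhb, the iron-sulfur subunit, gave -0.24 ± 0.15 (SE; limma, adjusted p = 0.224) and Sdhd, the other anchor, gave 0.33 ± 0.239 (SE; limma, adjusted p = 0.297), neither called. Among the assembly factors Sdhaf4 read 6.73, 5.85 and 6.001, against 7.42, 7.09 and 7.18 in control lung, with no overlap and a log2 fold change of -1.04 ± 0.175 (SE; limma, adjusted p = 6.05e-05).

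Complex III passes electrons from ubiquinol to cytochrome c, and 3 of its 6 probes fell at day 1 in wild type lung, with a median of -0.587. Uqcrh, the hinge protein beside cytochrome c1, read 7.17, 9.99 and 9.42 at LPS day 1, against 10.46, 10.39 and 9.99 in control lung. Replicate 1 was far below the other 2 LPS arrays, and replicate 2 equalled the lowest control array to 2 decimals. The log2 fold change was -1.42 ± 0.39 (SE; limma, adjusted p = 0.00595) with all arrays and -0.573 (limma, adjusted p = 0.00525) without replicate 1. Uqcr11 read 5.99, 8.15 and 7.92, against 8.66, 8.73 and 8.96 in control lung, with no overlap. It fell by 1.43 ± 0.317 (SE; limma, adjusted p = 0.00103), and by 0.746 without replicate 1 (adjusted p = 7.53e-05). Uqcr10 also fell (-0.58 ± 0.128 (SE)). Uqcrb, which lies at a ubiquinone site, read 6.40, 8.17 and 8.71, against 8.06, 8.30 and 8.71 in control lung, and was not called; its low value was on replicate 1 alone.

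Complex IV reduces oxygen, and 6 of 13 probes of its common subunits fell at day 1 in wild type lung while 0 rose. Ndufa4, named for complex I but a subunit of complex IV, read 7.51, 9.64 and 9.60 at LPS day 1, against 10.23, 10.11 and 10.31 in control lung. The groups did not overlap, yet replicate 1 was the lowest of the 3 LPS arrays by a wide margin: the log2 fold change was -1.30 ± 0.332 (SE; limma, adjusted p = 0.00333), and -0.595 (adjusted p = 0.00219) without replicate 1. Cox7a2, the form of subunit VIIa made in most tissues, read 6.52, 6.43 and 6.62, against 7.24, 6.84 and 7.11 in control lung, without overlap, and fell by 0.54 ± 0.144 (SE; limma, adjusted p = 0.0044). Both Cox6a1 probes fell, by 0.67 and 0.74 on the log2 scale, with replicate 1 lowest; without it they gave -0.214 (adjusted p = 0.186) and -0.354 (adjusted p = 0.0316). Of the Cox6b1 probes 1 fell, by 0.63, and the other gave -0.25, not called; without replicate 1 both were called, at -0.403 and -0.361. Cox7c fell by 0.77 and lost its call without replicate 1 (-0.246, adjusted p = 0.0787).

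ATP synthase makes ATP from the proton gradient, and 7 of its 15 probes fell at day 1 in wild type lung while 1 rose, with a median of -0.478. Atp5h, subunit d of the peripheral stalk, read 9.06, 9.52 and 9.47 at LPS day 1, against 10.72, 10.59 and 10.71 in control lung. The groups were more than 1 log2 unit apart on every array, and Atp5h fell by 1.33 ± 0.123 (SE; limma, adjusted p = 2.64e-08), a 2.51-fold lower level; without replicate 1 the value was -1.18. The central stalk subunits Atp5d (-0.92 ± 0.171 (SE)) and Atp5c1 (-0.83 ± 0.132 (SE)), the stalk subunit Atp5o (-0.76 ± 0.124 (SE)) and Atp5g2, a gene for the membrane ring (-0.64 ± 0.14 (SE)), fell as well; without replicate 1 Atp5d gave -0.608, still called. Atp5pb, subunit b of the peripheral stalk, read 6.13, 5.004 and 5.60, against 4.71, 4.78 and 4.88 in control lung, and rose by 0.79 ± 0.234 (SE; limma, adjusted p = 0.00987). Replicate 1 was its highest array, and without it the call was lost (0.514, adjusted p = 0.0638).

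**Figure D2:**
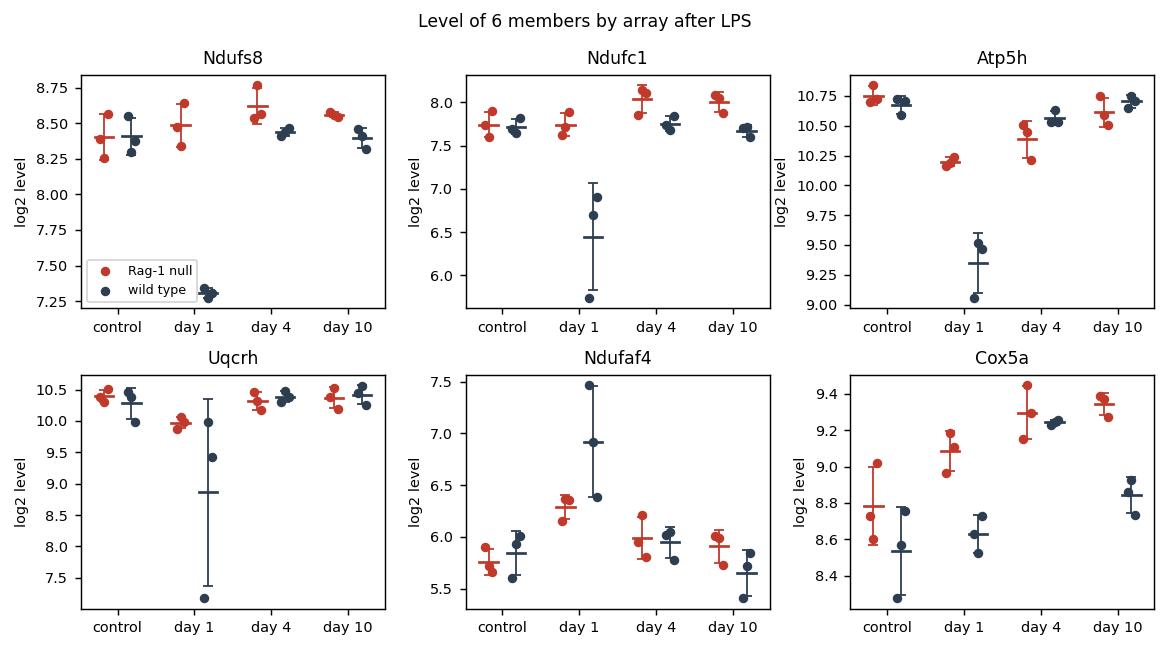
Log2 intensity of selected members in each group, Rag-1 null left of wild type at every condition; points are the 3 arrays, the line is their mean and the bar its SD. Ndufs8 lies at 7.28 to 7.34 in wild type lung at day 1 and at 8.34 to 8.64 in Rag-1 null lung at day 1, and the 3 wild type day 1 points of Uqcrh spread from 7.17 to 9.99.

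Markers of other cells moved in the same wild type day 1 arrays. Of 7 measured endothelial markers 5 fell and 0 rose, and their summed level was 9.92 to 10.8 log2 units at LPS day 1, against 11.94 to 11.97 in wild type control lung. All 4 measured alveolar type 1 markers fell, with a summed level of 11.4 to 12.1, against 13 to 13.15 in control lung. Of 10 neutrophil markers 9 rose, with a summed level of 12.6 to 13.9, against 9.77 to 13.02 in control lung. No marker is at 0 on this scale, and the part of these cells in the members' values was not tested.

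Rag-1 null lung at day 1 gave 7 falls among the members and 0 rises, 8.24% of members, against 16.9% of all probes (7.75% higher, 9.13% lower). The median member change was -0.0296, beside -0.013 over all probes, and the sign of that median turned with cyclic loess (0.00636) and in the authors' value table (0.0343). The count was 14 without replicate 1 of wild type LPS day 1 and 18 with array weights. Of the 7, 5 were complex IV isoforms known from particular tissues, and the other 2 were Atp5h and Ndufs7. Atp5h read 10.16, 10.19 and 10.24 at LPS day 1, against 10.70, 10.84 and 10.72 in Rag-1 null control lung. The groups lay apart and the LPS arrays were close together, with a log2 fold change of -0.56 ± 0.123 (SE; limma, adjusted p = 0.00241). Ndufs7 fell by 0.45 ± 0.127 (SE; limma, adjusted p = 0.0156). Ndufs8, lower in wild type lung at this time, read 8.47, 8.34 and 8.64 in Rag-1 null LPS day 1 lung, against 8.39, 8.25 and 8.57 in Rag-1 null control lung, overlapping ranges. Complexes I (1 of 33 subunit probes), II (0 of 3), III (0 of 6) and the common subunits of complex IV (0 of 13) held few or no called probes.

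The day 1 response itself was set against genotype as the Rag-1 null change minus the wild type change. For 9 members this difference passed the test, all of them positive, 10.6% of members, against 8.21% of all probes, of which 4.19% were positive and 4.02% negative. Unadjusted, 33 members (31 of them positive) had p under 0.05, against 22% of all probes. The median difference was 0.352, beside -0.000283 over all probes. The 9 were Ndufs8, Ndufc1, Ndufa3, Ndufa7 and 1 of the Ndufv3 probes in complex I, and Atp5h, Atp5c1, Atp5d and Atp5o in ATP synthase. For Ndufs8 the change was 0.08 ± 0.113 in Rag-1 null lung and -1.10 ± 0.113 in wild type lung, a difference of 1.18 ± 0.16 (SE; limma, adjusted p = 8.62e-05). For Ndufc1 it was -0.000961 ± 0.193 in Rag-1 null lung and -1.27 ± 0.193 in wild type lung, a difference of 1.27 ± 0.273 (SE; limma, adjusted p = 0.00524). The count of 9 was unstable. It was 20, with all 9 among them, without replicate 1 of wild type LPS day 1, 15 without replicate 2 of that group and 4 without replicate 2 of the Rag-1 null controls. It was 3 in the authors' value table and 5 with cyclic loess.

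Atp5h was lower after LPS in both genotypes, and the difference of 0.77 ± 0.173 (SE; limma, adjusted p = 0.00743) came with the same sign in both. Atp5d, of the central stalk, read 8.71, 8.60 and 8.62 in Rag-1 null lung at LPS day 1, against 8.70, 8.45 and 8.71 in Rag-1 null control lung. Wild type lung read 7.07, 8.04 and 7.998 at LPS day 1, against 8.60, 8.64 and 8.65 in control lung, so that only the wild type groups were apart. Its difference was 0.95 ± 0.242 (SE; limma, adjusted p = 0.017), 0.634 without replicate 1 of wild type LPS day 1, and it lost its call without replicate 2 of the Rag-1 null controls (0.864, adjusted p = 0.0526). Atp5c1, the gamma subunit that turns in the central stalk, read 9.31, 9.49 and 9.33 in Rag-1 null lung at LPS day 1, against 9.57, 9.26 and 9.36 in its controls, and 8.53, 8.87 and 8.90 in wild type lung at LPS day 1, against 9.54, 9.61 and 9.63 in its controls. Ndufa7 read 8.87, 8.97 and 9.18 in Rag-1 null lung at LPS day 1, against 9.01, 9.13 and 9.22 in its controls, and 7.37, 8.45 and 8.60 in wild type lung at LPS day 1, against 9.18, 9.13 and 9.27 in its controls. Of these 12 arrays, each gene was lowest on the 3 wild type LPS arrays. The Ndufa7 difference of 0.942 ± 0.279 (SE; limma, adjusted p = 0.0395) was 0.556 (adjusted p = 0.0139) without replicate 1 of wild type LPS day 1, and was lost without any 1 of 10 other arrays (0.856 to 1.01, adjusted p = 0.0505 to 0.0973).

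**Figure D3:**
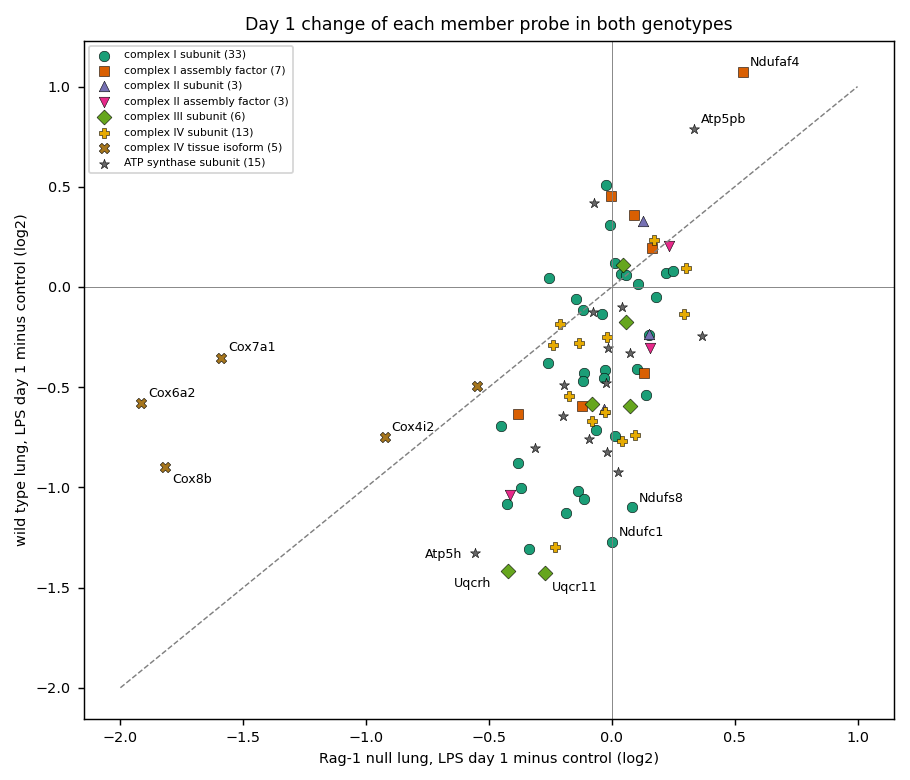
Log2 fold change at LPS day 1 against control for each of the 85 probes, Rag-1 null lung on the horizontal axis and wild type lung on the vertical axis, coloured by complex, with a dashed line where both changes are equal. Ndufs8 and Ndufc1 lie near -1.10 and -1.27 in wild type lung and near 0 in Rag-1 null lung, while Cox6a2, Cox8b and Cox7a1 lie low in Rag-1 null lung.

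Read directly between genotypes at LPS day 1, 43 members were higher and 1 lower in Rag-1 null than in wild type lung, 51.8% of members, against 24.3% of all probes called, 13% higher and 11.4% lower. The median difference was 0.455, beside 0.00091 over all probes, and 0.126, 0.526 and 0.461 on slides 1, 2 and 3. By role these were 18 of 33 complex I subunit probes, 2 of 3 complex II subunits, 4 of 6 in complex III, 8 of 13 common complex IV subunits and 8 of 15 in ATP synthase, and 0 of 5 tissue isoforms of complex IV. This contrast shares its wild type arrays with the wild type day 1 response above. Leaving out replicate 1 of wild type LPS day 1 gave 49, all higher, 34 of them among the 44. The count was 29 without replicate 3 of Rag-1 null LPS day 1. The summed level of the endothelial markers was 11.2 to 11.4 in Rag-1 null lung at LPS day 1, against 9.92 to 10.8 in wild type lung at LPS day 1, and that of 5 measured T cell markers was 7.02 to 7.12, against 7.57 to 7.87. The sums of alveolar type 1 markers (12.6 to 12.8, against 11.4 to 12.1) and monocyte and macrophage markers (11.01 to 11.19, against 10.24 to 10.68) were also higher in Rag-1 null lung. That of 8 alveolar type 2 markers was lower, at 12.5 to 13.4, against 14.1 to 14.2 in wild type lung. A sum weighs the brightest genes most, and gene by gene this list went mainly the other way. Without replicate 1 of wild type LPS day 1, 4 of the 8 were called higher and 1 lower in Rag-1 null lung, with a median of 0.632. The part of these cells in the result was not tested.

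Ndufc1 read 7.62, 7.72 and 7.89 in Rag-1 null lung at LPS day 1, against 5.74, 6.70 and 6.91 in wild type lung at LPS day 1, and was higher by 1.30 ± 0.193 (SE; limma, adjusted p = 4.6e-05). Ndufa6 read 7.53, 7.16 and 7.82 in Rag-1 null lung, against 6.002, 6.01 and 6.85 in wild type lung, a difference of 1.21 ± 0.232 (SE; limma, adjusted p = 0.000556). Neither gene's groups overlapped. For Ndufs8 the difference was 1.18 ± 0.113 (SE; limma, adjusted p = 2.25e-07) and for Uqcr11, at 8.45, 8.42 and 8.67 in Rag-1 null lung, it was 1.16 ± 0.317 (SE; limma, adjusted p = 0.00993). Uqcrb read 8.76, 8.80 and 9.20 in Rag-1 null lung, against 6.40, 8.17 and 8.71 in wild type lung. Its difference of 1.16 ± 0.343 (SE; limma, adjusted p = 0.0167) rested on replicate 1 of the wild type group and was 0.475 (adjusted p = 0.0684) without it. The assembly factor Ndufaf4 was the 1 member lower in Rag-1 null lung, at 6.15, 6.36 and 6.36, against 7.46, 6.91 and 6.39 in wild type lung; its difference of -0.63 ± 0.202 (SE; limma, adjusted p = 0.0256) was -0.359 (adjusted p = 0.131) without that array. For Uqcr11 and Uqcrh the differences without it were 0.479 (adjusted p = 0.00773) and 0.269 (adjusted p = 0.207), so that the Uqcrh call (1.11, adjusted p = 0.0411) was lost.

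Between the genotypes outside day 1, 1 member was called in all. In control lung 0 of 85 were called (limma), against 1.28% of all probes (0.288% higher, 0.997% lower); 12 of 85 had an unadjusted p under 0.05, all higher in Rag-1 null lung, against 13.1% of all probes, and the median was 0.0778. At LPS day 4 0 were called, against 0.539% of all probes (0.34% higher, 0.199% lower), with 3 at an unadjusted p under 0.05, against 9.43%. At LPS day 10 1 was called, Cox5a, against 5.52% of all probes (2.97% higher, 2.55% lower). The difference in response between genotypes passed for 0 members at day 4, against 0% of all probes, and for 0 at day 10, against 1.52% (0.775% positive, 0.746% negative), with 1 and 5 members at an unadjusted p under 0.05, against 10.9% and 15.2% of all probes. These counts depended on the setting: with array weights they were 5 in control lung, 3 at day 4 and 18 at day 10 between genotypes, and 2 for the day 10 difference in response. Without replicate 1 of wild type LPS day 1 they were 4 in control lung and 4 at day 10. The control count was also 3 and 1 without replicates 2 and 3 of that group, and without replicate 1 of the wild type controls the day 10 count was 2 and the day 10 difference in response passed for 1 member.

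**Figure D4:**
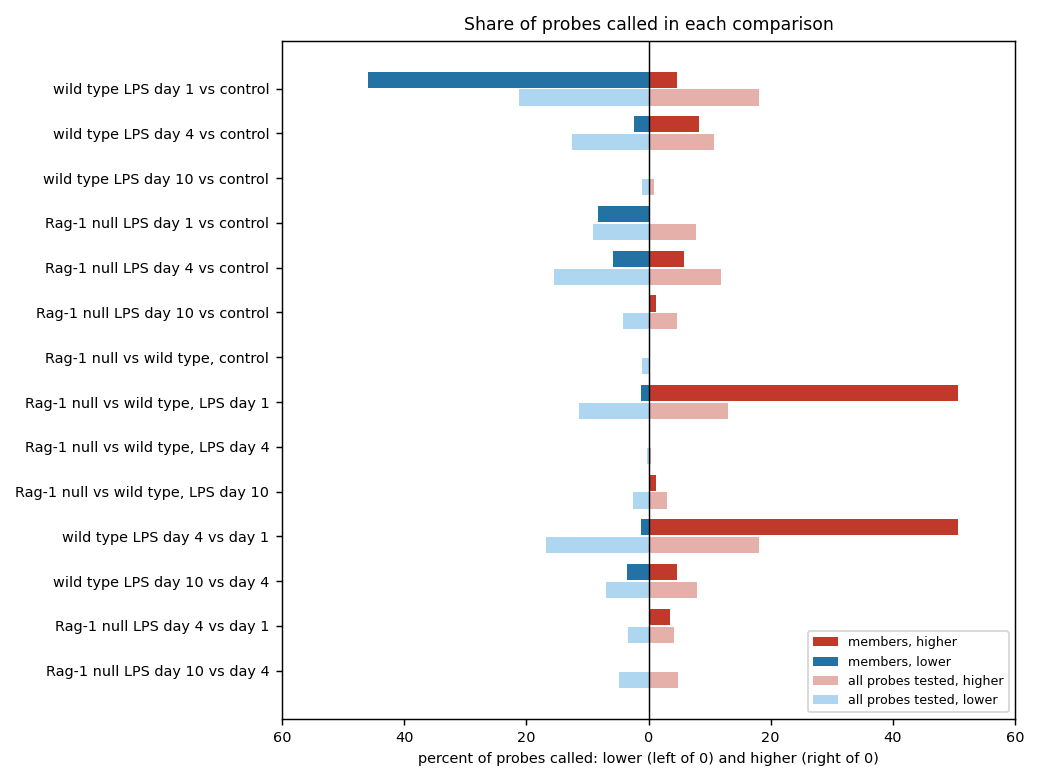
Percent of the 85 members and of all 13544 probes called higher and lower in each comparison of 2 groups (limma, adjusted p under 0.05). Lower calls hold 45.9% of members in wild type lung at day 1, against 21.2% of all probes, and in the day 10 comparisons with control the members' shares are at or near 0.

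Of the 39 members that fell at day 1 in wild type lung, 34 were called higher at day 4 than at day 1. The other 5 were not called: Cox4i2, Cox6b2, Ndufa4, Ndufv1 and Uqcr10, named here after their values were seen. Both comparisons use the same LPS day 1 arrays, so part of this overlap is fixed by the choice of members. Between LPS day 4 and day 1, 43 members were higher at day 4 and 1 was lower, 51.8% of members, against 34.8% of all probes (18.1% higher, 16.7% lower), with a median of 0.439. Of the 43, 9 had not fallen at day 1. Without replicate 1 of wild type LPS day 1, 55 members were higher and 2 lower, and 40 of the 44 original calls held. Ndufv1 was then called higher at day 4, by 0.402 (limma, adjusted p = 0.00696). Uqcrh read 10.30, 10.48 and 10.39 at day 4, against 7.17, 9.99 and 9.42 at day 1, a log2 difference of 1.53 ± 0.39 (SE; limma, adjusted p = 0.00406); without replicate 1 of day 1 it was 0.683 (adjusted p = 0.00159). Ndufa6 read 7.70, 7.46 and 8.01 at day 4, with a difference of 1.44 ± 0.232 (SE; limma, adjusted p = 5.27e-05), and Ndufc1 read 7.74, 7.67 and 7.85, with a difference of 1.31 ± 0.193 (SE; limma, adjusted p = 1.94e-05). At day 4 the ranges of all 3 genes overlapped those of their controls. For Uqcr11, at 8.75, 8.42 and 8.59, the difference was 1.24 ± 0.317 (SE; limma, adjusted p = 0.00422), and 0.552 (adjusted p = 0.00199) without that array. Atp5h, at 10.53, 10.63 and 10.53, differed by 1.22 ± 0.123 (SE; limma, adjusted p = 1.47e-07). Ndufaf4, the assembly factor that had risen, read 6.02, 6.05 and 5.77 and fell by 0.97 ± 0.202 (SE; limma, adjusted p = 0.00068). Rag-1 null lung had 3 members higher at day 4 than at day 1 and 0 lower, against 7.65% of all probes called (4.23% higher, 3.42% lower): 1 Ndufv3 probe by 0.47, Cox8a by 0.40 and 1 Cox6b1 probe by 0.37. The other Ndufv3 probe gave 0.156, not called. Leaving out single arrays gave 0 to 6 such members, 6 without replicate 1 of wild type LPS day 1 and 0 without replicate 1 or 2 of day 1 or replicate 2 of day 4. The Ndufv3 and Cox8a calls were lost without any 1 of 5 arrays (0.333 to 0.502, adjusted p = 0.0712 to 0.186) and any 1 of 4 arrays (0.365 to 0.391, adjusted p = 0.0938 to 0.127).

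Against control, 7 members rose and 2 fell in wild type lung at day 4, 10.6%, against 23.3% of all probes (10.7% higher, 12.6% lower). Cox5a, a subunit of complex IV, read 9.23, 9.24 and 9.26 at LPS day 4, against 8.28, 8.57 and 8.76 in wild type control lung. All 3 LPS arrays were above every control array and nearly equal, and Cox5a rose by 0.71 ± 0.131 (SE; limma, adjusted p = 0.000454), 1.64-fold. Sdhb, the iron-sulfur subunit of complex II, read 8.54, 8.37 and 8.54, against 7.98, 7.89 and 7.86 in control lung, without overlap, and rose by 0.58 ± 0.15 (SE; limma, adjusted p = 0.00755). Atp5g1, a gene for the ATP synthase ring, read 8.83, 8.20 and 8.17, against 7.80, 7.71 and 7.90 in control lung, and rose by 0.60 ± 0.155 (SE; limma, adjusted p = 0.00725); without replicate 1 of LPS day 4, its highest array, the call was lost (0.382, adjusted p = 0.0741). Atp5a1, the alpha subunit, read 8.59, 8.28 and 8.81, against 7.82, 7.58 and 8.01 in control lung, with a log2 fold change of 0.76 ± 0.219 (SE; limma, adjusted p = 0.0146). Its call was lost without any 1 of 3 arrays (0.639 to 0.746, adjusted p = 0.0511 to 0.0693). Sdhd read 7.97, 7.59 and 7.97, against 7.34, 6.84 and 7.39 in control lung, and its fold of 0.66 ± 0.239 (SE; limma, adjusted p = 0.0499) was lost without any 1 of 19 arrays (0.483 to 0.757, adjusted p = 0.0533 to 0.207). One Ndufs3 probe (0.42) and Cox5b (0.35) also rose, while the other Ndufs3 probe gave -0.000103, not called. The count was 19 without replicate 1 of wild type LPS day 1, 5 without replicate 1 of the controls and 2 without replicate 1 of LPS day 4. The split depended on the scaling: by the authors' value table it was 29 rises and 4 falls.

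At day 4 in Rag-1 null lung, 5 members rose and 5 fell, 11.8%, against 27.2% of all probes (11.9% higher, 15.4% lower); with cyclic loess and with the authors' value table it was 10 rises and 4 falls. The count was 20 without replicate 1 of wild type LPS day 1, 5 without replicate 2 of the controls, and 6 and 5 without replicates 2 and 3 of LPS day 4. Cox5a read 9.15, 9.45 and 9.29 at LPS day 4, against 8.73, 8.60 and 9.02 in Rag-1 null control lung, and rose by 0.51 ± 0.131 (SE; limma, adjusted p = 0.00481) without overlap. Sdhb read 8.40, 8.37 and 8.48, against 8.01, 7.80 and 7.99 in control lung, a rise of 0.48 ± 0.15 (SE; limma, adjusted p = 0.018), lost without replicate 2 of the controls (0.417, adjusted p = 0.0859) or replicate 3 of LPS day 4 (0.453, adjusted p = 0.0669). Ndufs3, a core subunit of complex I, read 8.40, 8.57 and 8.38, against 8.03, 7.84 and 8.19 in control lung, a rise of 0.43 ± 0.15 (SE; limma, adjusted p = 0.0356). Cox5b, beside Cox5a in complex IV, read 10.33, 10.44 and 10.25, against 9.90, 9.81 and 10.04 in control lung, a rise of 0.42 ± 0.129 (SE; limma, adjusted p = 0.0167). All 4 of these genes were also called higher in wild type lung at day 4, Ndufs3 by the same 1 of its 2 probes. The other Ndufs3 probe gave 0.269 in Rag-1 null lung, not called. The Ndufs3 call was lost without any 1 of 5 arrays (0.341 to 0.466, adjusted p = 0.0529 to 0.164) and the Cox5b call without either of 2 (0.366 and 0.371, adjusted p = 0.0801 and 0.0761). One Cox6b1 probe rose by 0.35. Atp5h read 10.51, 10.45 and 10.21, against 10.70, 10.84 and 10.72 in control lung; its fold of -0.37 ± 0.123 (SE; limma, adjusted p = 0.0293) was lost with cyclic loess (-0.231, adjusted p = 0.208), in the authors' value table (-0.0857, adjusted p = 0.648) and without any 1 of 3 arrays (adjusted p up to 0.157). The other 4 that fell were tissue isoforms of complex IV.

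At day 10, 1 member in all was called against control. Against wild type control lung 0 of 85 were called (limma), against 2.05% of all probes (0.945% higher, 1.11% lower), and 7 had an unadjusted p under 0.05, all higher, against 16.4% of all probes; 2 and 1 were called without replicates 1 and 2 of wild type LPS day 1. Against Rag-1 null control lung 1 was called, 1.18%, against 8.87% of all probes (4.64% higher, 4.24% lower). That member was Cox5a, which read 9.39, 9.37 and 9.28 at LPS day 10, against 8.73, 8.60 and 9.02 in Rag-1 null control lung. It rose by 0.56 ± 0.131 (SE; limma, adjusted p = 0.00677), and the call was lost without replicate 2 of the controls (0.470, adjusted p = 0.0599). The count of 1 was 4 without replicate 1 of wild type LPS day 1 and 2 without replicate 1 of the wild type controls. Cox5a was also higher at day 10 in Rag-1 null than in wild type lung, where it read 8.86, 8.93 and 8.73, by 0.50 ± 0.131 (SE; limma, adjusted p = 0.0232), lost without any 1 of 4 arrays (0.449 to 0.514, adjusted p = 0.0672 to 0.124). At day 10 against day 4, 4 members were higher and 3 lower in wild type lung, 8.24%, against 15% of all probes (8% higher, 6.96% lower); the count was 12 without replicate 1 of wild type LPS day 1, 1 without replicate 1 of day 4 and 3 without any 1 array of day 10. That comparison called 0 of 85 in Rag-1 null lung (limma), against 9.66% (4.75% higher, 4.9% lower), with 3 at an unadjusted p under 0.05, against 21.7%; leaving out single arrays gave 0 to 2. The 3 lower at day 10 in wild type lung were Atp5g1, at 7.94, 7.89 and 7.75 at day 10 (-0.54 ± 0.155 (SE)), Sdhb, at 7.86, 8.08 and 7.95 (-0.52 ± 0.15 (SE)), and Cox5a (-0.40 ± 0.131 (SE)). Their calls were lost without any 1 of 3, 4 and 8 arrays, with adjusted p up to 0.184, 0.0911 and 0.156.

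The tissue isoforms of complex IV followed another course. Cox6a2, Cox7a1 and Cox8b are the forms made mainly in heart and skeletal muscle, Cox4i2 is the form of subunit IV known from lung, and Cox6b2 is known from testis. All 5 fell at day 1 in Rag-1 null lung. Cox6a2 read in Rag-1 null lung 8.70, 8.27 and 8.75 in control lung, 6.83, 6.41 and 6.73 at day 1, 8.000, 7.09 and 6.53 at day 4 and 7.65, 8.51 and 8.31 at day 10. Wild type lung gave 8.65, 7.46 and 7.78 in control lung, 7.90, 7.13 and 7.12 at day 1, 6.17, 7.23 and 7.55 at day 4 and 8.61, 8.72 and 8.22 at day 10. At day 1 the Rag-1 null LPS arrays lay well below their controls and the wild type arrays overlapped theirs: the log2 fold change was -1.92 ± 0.363 (SE; limma, adjusted p = 0.000589) in Rag-1 null lung and -0.58 ± 0.363 (SE; limma, adjusted p = 0.221) in wild type lung.

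Cox8b read in Rag-1 null lung 6.80, 5.90 and 6.80 in control lung, 4.77, 4.44 and 4.85 at day 1, 5.12, 4.41 and 4.56 at day 4 and 4.88, 5.84 and 5.27 at day 10. It read in wild type lung 7.19, 5.62 and 5.41 in control lung, 5.94, 4.88 and 4.70 at day 1, 4.40, 4.60 and 5.14 at day 4 and 6.59, 6.64 and 6.06 at day 10. Wild type control replicate 1 lay above the other wild type controls, and Cox8b was above background on 2 of 3 arrays of Rag-1 null lung at day 1, 1 of 3 at day 4 and 2 of 3 of wild type lung at day 4, so that folds against these groups rest partly on arrays at background. At day 1 Cox8b changed by -1.82 ± 0.39 (SE; limma, adjusted p = 0.00194) in Rag-1 null lung, and at day 4 by -1.80 ± 0.39 (SE; limma, adjusted p = 0.00118). In wild type lung at day 1 its change was -0.898 (limma, adjusted p = 0.0725), not called. Without replicate 1 of wild type LPS day 1 that change was -1.28 (adjusted p = 0.0102), called. The wild type day 4 value of -1.36 ± 0.39 (SE; limma, adjusted p = 0.0144) was lost without replicate 1 of the controls (-0.80, adjusted p = 0.123) or of LPS day 4 (-1.20, adjusted p = 0.0744). Cox7a1 read in Rag-1 null lung 6.94, 5.70 and 6.74 in control lung, 4.90, 4.62 and 5.09 at day 1, 5.46, 4.86 and 4.88 at day 4 and 5.46, 6.22 and 4.85 at day 10. It read in wild type lung 7.32, 5.51 and 5.34 in control lung, 6.35, 5.40 and 5.37 at day 1, 4.98, 4.93 and 5.41 at day 4 and 6.50, 6.98 and 5.86 at day 10. Here too wild type control replicate 1 was the highest of all 24 arrays. Cox7a1 fell at day 1 (-1.59 ± 0.439 (SE; limma, adjusted p = 0.0136)) and day 4 (-1.39 ± 0.439 (SE; limma, adjusted p = 0.0202)) in Rag-1 null lung, calls lost without any 1 of 3 and 4 arrays (-1.35 to -1.47 and -1.15 to -1.30, adjusted p up to 0.078 and 0.102).

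Cox4i2 read in Rag-1 null lung 6.21, 6.57 and 6.39 in control lung, 5.56, 5.29 and 5.55 at day 1, 5.93, 5.48 and 5.46 at day 4 and 6.17, 6.17 and 6.25 at day 10. It read in wild type lung 6.37, 6.45 and 6.45 in control lung, 5.93, 5.75 and 5.36 at day 1, 5.29, 6.05 and 5.999 at day 4 and 6.35, 6.41 and 6.44 at day 10. This isoform was called lower at days 1 and 4 in both genotypes, with log2 fold changes of -0.93 ± 0.185 (SE; limma, adjusted p = 0.000984) and -0.77 ± 0.185 (SE; limma, adjusted p = 0.00297) in Rag-1 null lung and -0.75 ± 0.185 (SE; limma, adjusted p = 0.00263) and -0.64 ± 0.185 (SE; limma, adjusted p = 0.0144) in wild type lung. The wild type day 4 call was lost without replicate 1 of LPS day 4 (-0.399, adjusted p = 0.135). Cox6b2 was dim. It gave in Rag-1 null lung 5.10, 5.33 and 5.11 in control lung, 4.67, 4.61 and 4.61 at day 1, 4.95, 5.10 and 4.82 at day 4 and 4.88, 5.11 and 5.07 at day 10. Wild type arrays read 5.09, 4.96 and 5.14 in control lung, 4.59, 4.50 and 4.62 at day 1, 4.88, 4.75 and 4.92 at day 4 and 5.24, 4.97 and 4.999 at day 10. It was not well above background on any wild type LPS day 1 array, so its level there was at least 1.23-fold lower than in control lung (limma, adjusted p = 0.00126; the bound sets the dim arrays at the lowest signal above background), and in Rag-1 null lung at day 1 it fell by 0.55 ± 0.112 (SE; limma, adjusted p = 0.00117) with 2 of 3 LPS arrays above background.

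At day 4 in Rag-1 null lung, Cox6a2 changed by -1.36 ± 0.363 (SE; limma, adjusted p = 0.00667), a call lost without replicate 3 of LPS day 4 (-1.03, adjusted p = 0.0641). The 4 members higher at day 10 than at day 4 in wild type lung were all in this set: Cox8b by 1.72 ± 0.39 (SE; limma, adjusted p = 0.00402), Cox6a2 by 1.53 ± 0.363 (SE; limma, adjusted p = 0.00556), Cox7a1 by 1.34 ± 0.439 (SE; limma, adjusted p = 0.0419) and Cox4i2 by 0.62 ± 0.185 (SE; limma, adjusted p = 0.0252). Only the Cox8b call held without every single array in turn; those of Cox6a2, Cox7a1 and Cox4i2 were lost without 1 array, any 1 of 6 and any 1 of 4, with adjusted p up to 0.0611, 0.187 and 0.221. None of the 5 isoforms differed between genotypes at any time, or in its response between genotypes, at an adjusted p under 0.05 in limma.

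Heart muscle markers were read beside the muscle-type isoforms. Of 11 listed, 7 were measured (Myh6, Tnnt2, Actc1, Myl7, Myl4, Myl3 and Mb), of which Myh6 was above background on 6 arrays, Myl3 on 11, Mb on 14 and the other 4 on all 24. In Rag-1 null lung at day 1, 4 of the 7 fell (Myh6, Myl3, Myl7 and Actc1) with a list median of -1.74, and their summed level was 8.81, 8.55 and 9.22 log2 units, against 11.5, 9.75 and 11.6 in Rag-1 null control lung. At day 1 in wild type lung, 0 of 7 were called, with a median of 0.0274. The summed level there was 11.8, 8.74 and 9.46, against 11.7, 9.19 and 8.34 in wild type control lung. This median became -0.509, again with 0 of 7 called, once the first of these LPS arrays (11.8) was left out. The wild type control array that was high for Cox7a1 and Cox8b, replicate 1, was also the wild type control array highest in heart markers. Replicate 1 of wild type LPS day 1 was as high in heart markers (11.8), while its Cox7a1 and Cox8b lay below that control array. Within its own group it was the highest array in heart markers, Cox6a2, Cox7a1 and Cox8b. Replicate 2 of the Rag-1 null controls was the lowest of its group in each of these, and replicate 1 of Rag-1 null LPS day 4 the highest of its group. In Rag-1 null lung at day 1 heart markers were highest on replicate 3 and Cox6a2 on replicate 1. At day 4 the sum was 10.02, 8.45 and 7.91 in Rag-1 null lung and 7.79, 7.94 and 9.81 in wild type lung. At day 10 it was 9.92, 10.9 and 9.10 in Rag-1 null lung and 11.3, 11.7 and 10.8 in wild type lung. The adipose markers Adipoq and Fabp4 summed to 5.43 to 5.65 at day 1 in Rag-1 null lung, against 5.597 to 7.16 in its controls. The part of heart or adipose tissue in the isoforms' values was not tested.

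**Figure D5:**
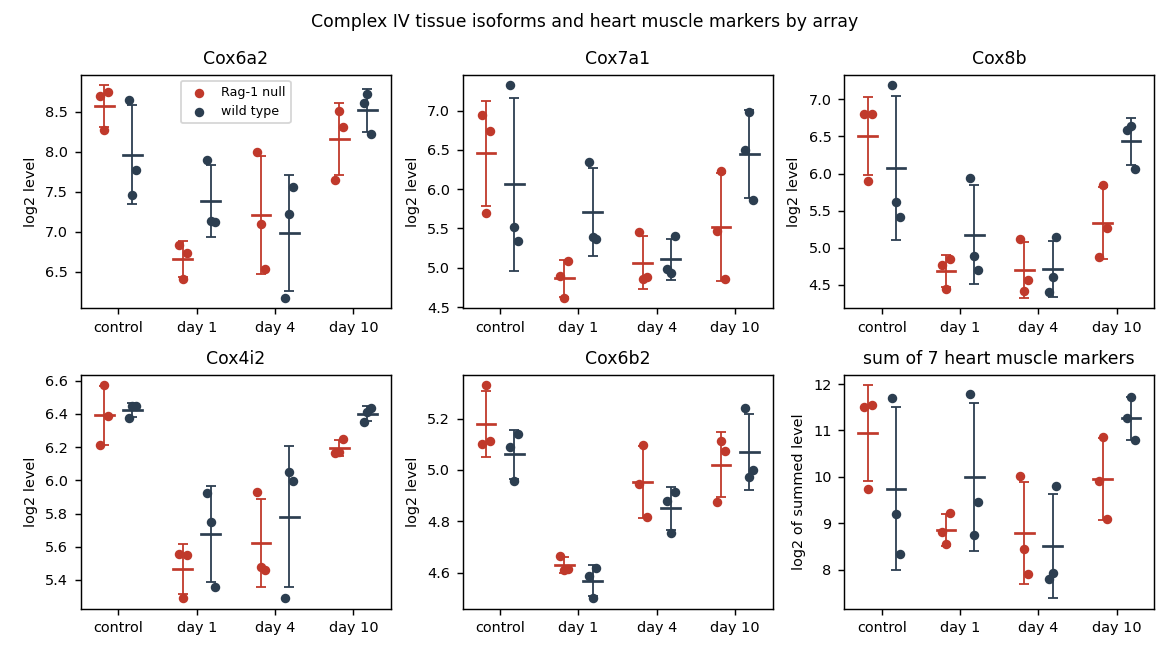
Log2 intensity of the 5 tissue isoforms of complex IV and the summed level of 7 heart muscle markers in each group, Rag-1 null left of wild type at every condition; points are the 3 arrays, the line their mean and the bar its SD. Wild type control replicate 1 is the high point of its group for Cox7a1 (7.32), Cox8b (7.19) and the heart markers (11.7), and the Rag-1 null day 1 points are close together and low.

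The partner isoforms made in most tissues were not called in Rag-1 null lung at day 1. Cox4i1 read in Rag-1 null lung 10.70, 10.82 and 10.95 in control lung, 10.53, 10.66 and 10.64 at day 1, 10.95, 10.68 and 10.66 at day 4 and 10.93, 10.78 and 10.92 at day 10. Wild type values of Cox4i1 were 10.90, 10.95 and 10.81 in control lung, 11.11, 10.49 and 10.51 at day 1, 10.77, 10.88 and 10.87 at day 4 and 10.85, 10.90 and 10.77 at day 10. With all arrays Cox4i1 was not called in any comparison with control, and in wild type lung at day 1 replicate 1 was above every control array while replicates 2 and 3 were below. Its day 1 log2 fold change there was -0.185 (limma, adjusted p = 0.317). Without replicate 1 it was -0.389 (adjusted p = 0.00674), called. Cox8a read in Rag-1 null lung 10.02, 10.13 and 9.97 in control lung, 9.88, 9.83 and 10.01 at day 1, 10.26, 10.34 and 10.34 at day 4 and 9.96, 10.17 and 10.38 at day 10. Wild type values of Cox8a were 9.87, 9.79 and 9.69 in control lung, 9.35, 9.56 and 9.59 at day 1, 10.01, 10.10 and 10.12 at day 4 and 9.94, 9.97 and 9.98 at day 10. It was not called against control at any time, and at LPS day 1 it was higher in Rag-1 null than in wild type lung by 0.41 ± 0.114 (SE; limma, adjusted p = 0.0119). Cox7a2, partner of Cox7a1, read in Rag-1 null lung 7.09, 7.03 and 6.98 in control lung, 6.65, 6.79 and 7.14 at day 1, 7.09, 7.36 and 7.26 at day 4 and 6.95, 7.23 and 6.85 at day 10. Later wild type values were 6.996, 6.98 and 6.74 at day 4 and 6.88, 6.82 and 6.81 at day 10, not called against control.

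The brighter Cox6a1 probe, partner of Cox6a2, read in Rag-1 null lung 9.97, 10.07 and 10.08 in control lung, 10.07, 9.998 and 9.82 at day 1, 9.98, 10.23 and 10.17 at day 4 and 10.08, 10.18 and 9.80 at day 10. That probe read in wild type lung 9.62, 9.998 and 9.93 in control lung, 8.27, 9.69 and 9.58 at day 1, 10.03, 10.15 and 10.08 at day 4 and 9.96, 9.90 and 9.97 at day 10. Replicate 1 of wild type day 1 was low, and the day 4 arrays lay above all control arrays without a call. The brighter Cox6b1 probe read in Rag-1 null lung 9.51, 9.28 and 9.54 in control lung, 9.37, 9.42 and 9.45 at day 1, 9.79, 9.83 and 9.71 at day 4 and 9.83, 9.72 and 9.54 at day 10. Wild type lung gave for it 9.29, 9.43 and 9.50 in control lung, 8.34, 9.11 and 8.90 at day 1, 9.89, 9.70 and 9.54 at day 4 and 9.48, 9.38 and 9.29 at day 10. Ndufa4 read in Rag-1 null lung 10.14, 10.09 and 10.01 in control lung, 9.82, 9.85 and 9.87 at day 1, 9.48, 9.84 and 9.31 at day 4 and 9.77, 9.92 and 9.35 at day 10. Wild type values of Ndufa4 were 9.81, 9.81 and 9.60 at day 4 and 9.89, 9.97 and 9.998 at day 10. At both of these times Ndufa4 lay below every wild type control array, without a call.

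Genes that feed or build the chain were read from lists beside the members; at day 1, 18.1% of all probes were called higher and 21.2% lower in wild type lung, and 7.75% and 9.13% in Rag-1 null lung. At day 1 in wild type lung 3 of 17 measured tricarboxylic acid cycle genes rose (17.6%) and 6 fell (35.3%), with a median of -0.306. Among them Idh2 fell by 1.74 and Ogdh by 1.13 on the log2 scale, while Dlst rose by 0.754 and Dld by 0.599. In Rag-1 null lung at day 1 0 of the 17 were called, with a median of -0.0215. Of 12 electron carriers and feeders 2 rose (16.7%) and 4 fell (33.3%) in wild type lung, among them cytochrome c (Cycs, 0.978) and Gpd2 (0.693, and 0.458 without replicate 1 of LPS day 1), and the electron transfer flavoprotein genes Etfb (-0.899) and Etfa (-0.742); in Rag-1 null lung 0 were called. Of 19 further assembly factors 3 rose (15.8%) and 7 fell (36.8%) in wild type lung, with Coa3 at -1.23, Surf1 at -0.95 and Cox11 at 0.875, and 0 were called in Rag-1 null lung. With all arrays, mitochondrial ribosomal protein genes gave 11 rises (15.7%) and 16 falls (22.9%) of 70 in wild type lung (median -0.0262), shares near those of all probes, and 2 rises and 1 fall in Rag-1 null lung. Without replicate 1 of wild type LPS day 1 they gave 11 rises and 21 falls in wild type lung (median -0.0614). The cycle genes then gave 3 rises and 8 falls, the carriers and feeders 2 and 5, and the further assembly factors 3 and 7.

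Of 11 regulators of mitochondrial biogenesis 2 rose (18.2%) and 1 fell (9.09%) in wild type lung at day 1, and 3 and 3 without replicate 1. The 3 called with all arrays were Tfam, which packages mitochondrial DNA and activates its transcription (0.669), Gabpb1, a subunit of GABP (0.597), and the mitochondrial RNA polymerase Polrmt (-0.375). Rag-1 null lung had 1 rise, Esrra (0.457). Between genotypes at LPS day 1, Tfam and Nrf1 were lower in Rag-1 null lung, with log2 differences of -0.719 and -0.579, and Tfb1m was higher, at 0.729; the Nrf1 and Tfb1m differences were -0.90 and 1.16 with replicate 1 of wild type LPS day 1 left out. Of 12 genes of mitochondrial stress and switching, Sod2, the superoxide dismutase of the matrix, rose by 2.43 in Rag-1 null lung and by 2.57 in wild type lung at day 1. Pdk4, which shuts pyruvate out of the cycle, rose by 0.911 in Rag-1 null lung and by 2.44 in wild type lung, and this response differed between genotypes (-1.53 ± 0.336, SE; limma, adjusted p = 0.00605). The outer membrane channel Vdac1 fell by 1.09 in wild type lung. By day 4 the 17 cycle genes gave 1 rise and 2 falls in wild type lung and 0 rises and 3 falls in Rag-1 null lung. Idh3a and Dlat were called lower in both. Of all probes, 10.7% were called higher and 12.6% lower at day 4 in wild type lung, and 11.9% and 15.4% in Rag-1 null lung.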

How the data were processed

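Whole-lung total RNA was labelled as biotin cRNA (Ambion MessageAmp, per the labels) and hybridised to Illumina beadchips. For each of 24046 probes on 24 arrays the deposited scanner table gives the mean bead signal as a linear intensity, per the file headers. It also gives a detection score, deposited as a fraction, in which higher values mark probes brighter than more of the negative controls. The second deposited table, the authors' values, lists 13029 probes as log2 numbers. Each of its columns matched log2 of 1 scanner column after subtraction of the column's own mean, and column medians were -0.546 to -0.371. The choice of probes and the scanner software were not stated.

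Arrays were named through this match. The largest deviation from the matching scanner column was 0.000503, while every other column deviated by 1.42 or more somewhere. Every slide carried all 8 groups once, each at a fixed position, which confounds position with group.

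Background correction from the detection scores, quantile normalisation and log2 transformation used neqc (offset 16) of limma 3.58.1 in R 4.3.3; figures used Python 3.11.15. Quantile normalisation compresses differences among the brightest probes. Testing covered 13544 probes whose score exceeded 0.95 on at least 3 arrays; 11658 carried a symbol. All 85 member symbols matched RefSeq by Entrez ID with 0 changed. A limma fit of 8 group means to 24 arrays supplied 17 contrasts (eBayes, trend, two-sided p, Benjamini-Hochberg over tested probes, adjusted p under 0.05). The number of arrays limits the precision. The procedure was tested on simulated data.

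Values on every array are given for the paired isoform genes of complex IV and, in each comparison, for up to 5 rises and 5 falls with the largest change among called members, 1 probe per gene. For gene lists, counts and up to 4 called genes with the smallest adjusted p are given. Members and lists were chosen with earlier results of these data known. The alternatives tried were: leaving out single arrays, array weights (0.099 to 3.21), the replicate number as a fixed block or a random one (statmod 1.5.0), a score above 0.99 on 6 or more arrays (10172 probes), no detection filter, the authors' values (12942 tested probes), cyclic loess, and raw signals with no background correction. Leaving out slide 1 was added after seeing the data.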

Additional observations from a re-analysis of the deposited data

Results flagged for a closer look

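The 9 members named here have a day 1 response to LPS that differed between the genotypes, by a test of the difference itself (limma, adjusted p under 0.05; 8.21% of all probes passed). Each value is the Rag-1 null change minus the wild type change on the log2 scale. In complex I it was 1.18 ± 0.16 for Ndufs8 (SE; limma, adjusted p = 8.62e-05), 1.27 ± 0.273 for Ndufc1 (adjusted p = 0.00524), 0.65 ± 0.174 for Ndufa3 (adjusted p = 0.0224), 0.942 ± 0.279 for Ndufa7 (adjusted p = 0.0395) and 0.63 ± 0.192 for 1 Ndufv3 probe (adjusted p = 0.0456). In ATP synthase it was 0.77 ± 0.173 for Atp5h (adjusted p = 0.00743), 0.804 ± 0.187 for Atp5c1 (adjusted p = 0.00943), 0.95 ± 0.242 for Atp5d (adjusted p = 0.017) and 0.667 ± 0.176 for Atp5o (adjusted p = 0.0206).

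The array farthest from its group was replicate 1 of wild type lung at day 1; when it was left out the differences were 1.2 for Ndufs8, 0.917 for Ndufc1, 0.709 for Ndufa3, 0.556 for Ndufa7, 0.769 for Ndufv3, 0.625 for Atp5h, 0.686 for Atp5c1, 0.634 for Atp5d and 0.688 for Atp5o, and all 9 were called (limma). Other settings took calls away. The Ndufs8 and Ndufc1 calls held in all 33 settings tried. In the authors' value table Atp5h (0.55, adjusted p = 0.0563), Atp5c1 (0.582, adjusted p = 0.057), Atp5o (0.427, adjusted p = 0.221), Ndufa3 (0.463, adjusted p = 0.159), Ndufa7 (0.803, adjusted p = 0.0909) and Ndufv3 (0.49, adjusted p = 0.166) were not called. With cyclic loess Atp5o, Ndufa3, Ndufa7 and Ndufv3 were not called (adjusted p = 0.137, 0.0789, 0.0918 and 0.0823). Leaving out single arrays took away the call of Ndufv3 for 19 of 24 arrays, Ndufa7 for 10, Ndufa3 for 4, Atp5o for 2 and Atp5d for 1. With 3 arrays a group, no group was large enough for a test of single outlying arrays.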

How the results depend on the processing

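Counts of called members moved by over 1.5 times under these settings. In the authors' value table they were 33 in wild type lung at day 4 (29 higher, 4 lower), 4 in wild type and 2 in Rag-1 null lung at day 10, 5 between genotypes in control lung, 3 for the day 1 and 1 for the day 4 difference in response, and 1 in Rag-1 null lung at day 10 against day 4. With array weights they were 18, 29 and 11 in Rag-1 null lung at days 1, 4 and 10, 3 in wild type lung at day 10, 5, 3 and 18 between genotypes in control lung and at days 4 and 10, 23 and 2 for the differences in response at days 1 and 10, 14 in wild type lung at day 10 against day 4, and 18 and 7 in Rag-1 null lung at day 4 against day 1 and day 10 against day 4. Cyclic loess gave 5 for the day 1 difference in response, no detection filter gave 0 in Rag-1 null lung at day 4 against day 1, and no background correction and the stricter filter each gave 1 in Rag-1 null lung at day 10 against day 4. Without slide 1 the counts that moved were 4 in wild type lung at day 4, 2 between genotypes at day 4, 18 and 1 for the differences in response at days 1 and 4 and, for day 10 against day 4, 2 in wild type and 3 in Rag-1 null lung. The cause was not tested. In wild type lung at day 1 the value table called 29 members (3 higher, 26 lower), 34.1%, against 36.5% of its probes, and cyclic loess 33, 38.8%, against 35.1%.

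Leaving out each array in turn gave 39 to 45 called members in wild type lung at day 1, 2 (without replicate 1 of wild type day 4) to 19 at day 4 and 0 to 2 at day 10. In Rag-1 null lung it gave 5 to 14, 5 to 20 and 1 to 4. Between genotypes it gave 0 to 4 in control lung, 29 to 49 at day 1, 0 to 0 at day 4 and 0 to 4 at day 10. For the differences in response it gave 4 (without replicate 2 of the Rag-1 null controls) to 20 (without replicate 1 of wild type day 1), 0 to 0 and 0 to 1. Day 4 against day 1 gave 41 to 57 in wild type and 0 to 6 in Rag-1 null lung, and day 10 against day 4 gave 1 (without replicate 1 of wild type day 4) to 12 and 0 to 2.

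With the replicate number as a block the counts were 1 in wild type lung at day 10 and 2 and 2 between genotypes in control lung and at day 10; other counts stayed within 1.5 times, and the block kept all 57 named calls. Deviations of same-numbered arrays correlated at 0.0477 on average (84 pairs, -0.493 to 0.372), against -0.0235 for 168 other pairs. Of 24 arrays, 18 correlated best with their own number. Each replicate number stands for a single slide, so a slide effect and a pairing of samples cannot be told apart here. The main fit takes in neither, and the block does. Of the 57 named calls 28 held in every planned setting and 0 changed sign. Probes near background limit Cox6b2, Cox8b and Ndufc2.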
